A study of Mus musculus with 24 samples.

Results

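The genes described here copy the genome and divide the cell: 47 mouse genes, 22 of DNA replication and 25 of mitosis, listed under 48 names because Cdc2a is an older symbol of Cdk1. They were chosen by name for their known function, and a gene was kept where its array probe lay above background on at least 4 of 24 arrays. Of the 47 genes, 42 had 1 or more probes and 33 were measured by this criterion, 18 of replication and 15 of mitosis, out of 10733 genes measured in the whole series. A gene with several kept probes was read by its probe of highest mean. The series profiled liver RNA of mice labelled control and of mice labelled as DNMT1 knockouts on an Illumina expression array. Livers were taken at weeks 4, 8 and 20, which gives 6 groups of 4 arrays: control at week 4, 8 and 20 and knockout at week 4, 8 and 20. The labels give neither the strain and sex of the mice nor the promoter or Cre line behind the knockout, and do not say whether the 4 arrays of a group came from 4 animals or whether livers were pooled. The p-values below therefore measure the spread between these arrays, which may be technical.

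DNA replication is licensed when CDC6 and CDT1 load the ring-shaped MCM helicase onto origins, and it starts when CDC45 and the GINS complex switch the helicase on. Primase and DNA polymerases then copy the strands on the PCNA clamp, FEN1 and DNA ligase I join the short fragments of the lagging strand, and ribonucleotide reductase supplies the building blocks. Mitosis is driven by CDK1 with B-type cyclins, organised by the PLK1 and Aurora kinases and by spindle motors, and ended when CDC20 turns on the anaphase-promoting complex. E2F factors are known to control replication genes, and the DREAM and MuvB complexes to control mitotic genes through CHR elements. In the liver, hepatocytes divide during growth after birth and rest in the adult, and DNMT1, which copies methyl marks onto new DNA, is itself brought to replication forks.

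The promoters of both classes were searched in RefSeq windows of assembly GRCm38.p6, each reaching from 250 bases before to 50 bases after an annotated start, and 40 of the 47 genes had a window. Letters searched on both strands were TTTGGCGC, TTTCCCGC, TTTCGCGC and TTTGCCGC for E2F, TTTGAA and TTCGAA for CHR, and CCAAT. Matches on opposite strands can overlap, letters of different motifs can share at most a single base, and each gene was counted once. E2F letters were found in 8 of 19 (42.1%) replication genes, namely Mcm3, Mcm5, Mcm6, Mcm7, Cdc6, Cdt1, Pola1 and Lig1, and in 1 of 21 (4.76%) mitosis genes, Cdk1. CHR letters were found in 17 of 21 (81%) mitosis genes and in 4 of 19 (21.1%) replication genes, which were Mcm2, Mcm7, Fen1 and Cdc45. The mitosis genes without CHR letters in these windows were Ccnb1, Birc5, Nusap1 and Melk. CCAAT letters were found in 18 of 21 (85.7%) mitosis genes and 12 of 19 (63.2%) replication genes. These counts include genes that were not measured. Among measured replication genes E2F, CHR and CCAAT letters were in 7, 4 and 10 of 17 (41.2%, 23.5% and 58.8%). Among measured mitosis genes they were in 1, 11 and 12 of 14 (7.14%, 78.6% and 85.7%). The shares over the 8204 genes of the series that were tested and had a window were 4.29% for E2F, 17.2% for CHR and 43% for CCAAT letters. Over all 27025 genes with a window they were 2.6%, 21.7% and 41.1%. A match describes letters in a window and does not show that a factor binds there.

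**Figure D1:**
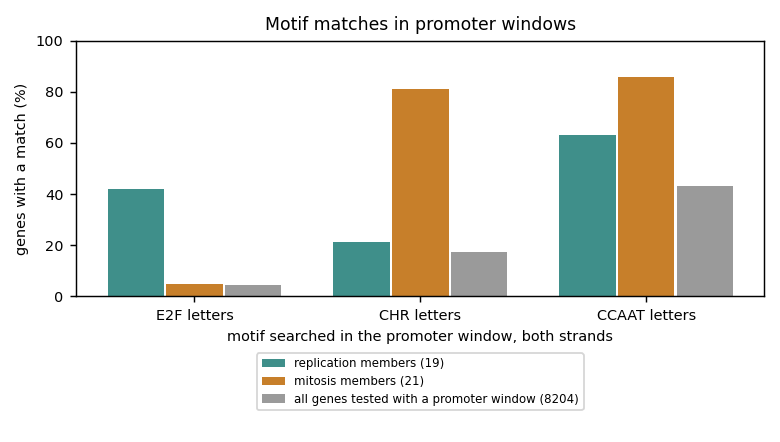
Percent of genes with a match, on the y axis, for E2F, CHR and CCAAT letters on the x axis, in replication genes (teal, 19), mitosis genes (orange, 21) and all tested genes with a promoter window (grey, 8204). E2F letters reach 42.1% in replication genes and CHR letters 81.0% in mitosis genes. The teal and orange bars include genes that were not measured.

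The windows of 6 genes are printed because they are the 3 replication genes with E2F letters and the 3 mitosis genes with CHR letters that had the lowest p at week 8. Each is given 5′ to 3′ on the strand of the gene, and capitals mark the E2F letters in the replication genes and the CHR letters in the mitosis genes, on either strand. Mcm5 (chr8:75109259-75109558, plus strand), Mcm6 (chr1:128359656-128359955, minus strand) and Lig1 (chr7:13278576-13278875, plus strand) stand first, followed by Prc1 (chr7:80294201-80294500, plus strand), Top2a (chr11:99024140-99024439, minus strand) and Cdk1 (chr10:69352863-69353162, minus strand).
Mcm5 promoter: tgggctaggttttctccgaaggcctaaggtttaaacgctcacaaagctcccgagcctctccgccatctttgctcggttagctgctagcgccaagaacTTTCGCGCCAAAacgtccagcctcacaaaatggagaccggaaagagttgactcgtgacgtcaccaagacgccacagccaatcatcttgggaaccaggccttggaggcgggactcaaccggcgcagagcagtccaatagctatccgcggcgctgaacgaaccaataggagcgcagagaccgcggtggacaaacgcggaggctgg
Mcm6 promoter: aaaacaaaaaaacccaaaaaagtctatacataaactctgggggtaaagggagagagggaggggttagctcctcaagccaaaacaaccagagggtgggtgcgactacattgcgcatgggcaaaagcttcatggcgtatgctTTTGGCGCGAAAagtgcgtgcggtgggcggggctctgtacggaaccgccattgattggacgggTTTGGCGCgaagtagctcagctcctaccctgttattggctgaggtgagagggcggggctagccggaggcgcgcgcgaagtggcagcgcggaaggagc
Lig1 promoter: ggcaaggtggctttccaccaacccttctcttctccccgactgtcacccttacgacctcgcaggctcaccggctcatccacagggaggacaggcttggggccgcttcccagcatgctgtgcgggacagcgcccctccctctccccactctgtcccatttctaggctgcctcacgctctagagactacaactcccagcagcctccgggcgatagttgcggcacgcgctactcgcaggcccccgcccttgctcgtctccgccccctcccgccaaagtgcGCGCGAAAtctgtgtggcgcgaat
Prc1 promoter: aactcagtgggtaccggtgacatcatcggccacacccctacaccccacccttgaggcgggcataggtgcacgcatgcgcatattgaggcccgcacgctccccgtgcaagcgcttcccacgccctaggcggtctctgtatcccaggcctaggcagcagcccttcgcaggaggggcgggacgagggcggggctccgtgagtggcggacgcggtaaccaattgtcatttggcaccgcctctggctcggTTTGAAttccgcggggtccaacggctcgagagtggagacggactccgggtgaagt
Top2a promoter: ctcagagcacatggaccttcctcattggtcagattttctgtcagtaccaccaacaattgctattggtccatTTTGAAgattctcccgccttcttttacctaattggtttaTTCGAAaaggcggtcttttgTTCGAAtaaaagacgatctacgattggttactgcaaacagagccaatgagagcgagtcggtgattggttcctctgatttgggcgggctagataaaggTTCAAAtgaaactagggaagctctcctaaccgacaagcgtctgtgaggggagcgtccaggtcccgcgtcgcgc
Cdk1 promoter: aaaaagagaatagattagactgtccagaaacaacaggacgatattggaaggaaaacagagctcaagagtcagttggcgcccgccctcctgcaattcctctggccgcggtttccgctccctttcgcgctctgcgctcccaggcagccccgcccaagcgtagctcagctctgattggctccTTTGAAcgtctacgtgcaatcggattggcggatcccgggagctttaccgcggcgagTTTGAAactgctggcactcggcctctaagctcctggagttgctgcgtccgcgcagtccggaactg
In Mcm5 and Mcm6 an E2F match on the gene's strand overlaps one on the opposite strand, and Mcm6 holds a further match nearer the start. The single match in Lig1 lies 26 bases past the start used for its printed window, and the gene has 3 windows. The CHR letters of Prc1 begin 5 bases before the start used for its printed window. In the other of its 2 windows they begin 30 bases before the annotated start. Top2a holds 4 CHR matches and 6 CCAAT matches in its window. Cdk1 holds 2 CHR matches, the nearer beginning 15 bases before the start.

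Values are the authors' deposited intensities, already background-subtracted and normalized, and a probe counted as above background over an intensity of 16.3. The log2(intensity + 16) scale was used, with values below 0 set to 0, and a difference subtracts the control mean from the knockout mean of 4 arrays each and is printed ± its SE. A gene is said to be higher, lower or changed where limma gave an adjusted p under 0.05 over the 10733 genes. This scale understates the change of dim probes. Where no array of the dimmer group was above background, "at least" gives the brighter group's geometric mean over the background threshold. On each array between 12182 and 12268 of 25697 probes were above background. The Dnmt1 probe read 71.2 to 118 in controls and 52.3 to 105 in knockouts at week 4, 88.3 to 104 and 70.4 to 87.3 at week 8, and 67.6 to 100.3 and 37.9 to 69.4 at week 20. Its difference passed the limma threshold at no week, with adjusted p of 0.364, 0.2 and 0.0737, and the labels do not place this probe inside or outside the deleted stretch, so it checks nothing about the deletion.

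Some arrays stood apart. Control week 20 replicates 3 and 4 read 6266 and 5870.1 for Saa1, an acute phase protein, against 42.2 and 44.3 on the other arrays of that group. Knockout week 8 replicate 4 had Eif2s3y, a Y-linked gene, at the floor of the scale, while the other 23 arrays read it above background. Control week 4 replicate 5 had the lowest mean level of both classes in its group, and knockout week 4 replicate 1 the lowest in its own. Calls that were lost without one of these arrays, or without both of the week 20 controls, are named with their values beside the results.

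Both classes showed a similar course over the 3 ages. In control livers the mitosis genes were high at week 4 and low at weeks 8 and 20, while in knockout livers they stayed high through week 8 and were low at week 20. Their mean log2 level over the 15 measured genes was 7.30, 7.07, 7.09 and 6.19 on the 4 control arrays of week 4, 5.01, 5.26, 5.08 and 5.19 at week 8 and 5.24, 5.01, 5.18 and 5.14 at week 20. On the knockout arrays it was 7.33, 8.23, 8.01 and 7.95 at week 4, 7.58, 7.96, 7.72 and 8.51 at week 8 and 5.65, 5.81, 5.55 and 5.57 at week 20. The knockout arrays lay above all control arrays of the same age at each of the 3 weeks, by the narrowest margin at week 4, and the week 20 knockout arrays lay far nearer to the controls than to the week 8 knockouts. For the 18 replication genes the mean log2 level was 7.14, 6.93, 7.35 and 6.64 in controls at week 4, 6.10, 6.13, 6.17 and 6.38 at week 8 and 6.22, 6.45, 6.21 and 6.32 at week 20. The knockout arrays read 6.90, 7.48, 7.38 and 7.36, 7.35, 7.18, 7.45 and 7.56 and 6.35, 6.29, 6.37 and 6.44 at the same ages. Here control and knockout arrays overlapped at weeks 4 and 20 and did not overlap at week 8. These levels average different probes and are not compared between the classes. In bulk liver RNA, fewer or more cells in cycle and less or more RNA per cell cannot be told apart.

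**Figure D2:**
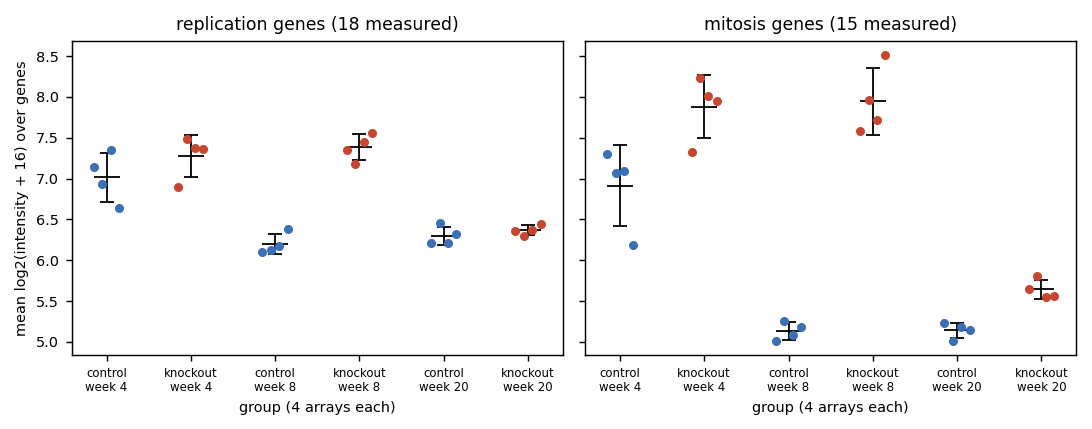
Mean log2(intensity + 16) over the 18 replication genes (left) and the 15 mitosis genes (right), on the y axis, for the 6 groups on the x axis, with 1 point per array (control blue, knockout red) and bars for group mean ± SD. Control arrays fall between week 4 and week 8, knockout arrays only after week 8.

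At week 8 nearly every measured gene of both classes was higher in knockout liver. Of the 15 mitosis genes 15 were higher and 0 lower, and of the 18 replication genes 15 were higher and 0 lower, where 24.9% of all tested genes were higher and 24% lower. The median difference was 3.08 for the mitosis genes and 1.13 for the replication genes, against -0.07 for all tested genes. At an unadjusted p under 0.05 limma also gave 0 lower genes in either class. On this scale, differences of mitosis genes ran from 0.90 for Bub1b to 4.47 for Prc1, and those of replication genes from -0.16 for Tk1 to 2.66 for Mcm5. For 8 of the genes, Mcm3, Cdc6, Top2a, Ccnb1, Kif11, Kif23, Tpx2 and Nusap1, no control array of week 8 was above background, so their differences depend on the floor of the scale, they passed the filter through other groups, and the counts are over the measured genes only. Without a filter on dim probes, 15 of 20 replication genes and 15 of 22 mitosis genes were higher and 0 lower. Without knockout week 8 replicate 4 the counts were 13 of 18 replication genes and 15 of 15 mitosis genes.

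**Figure D3:**
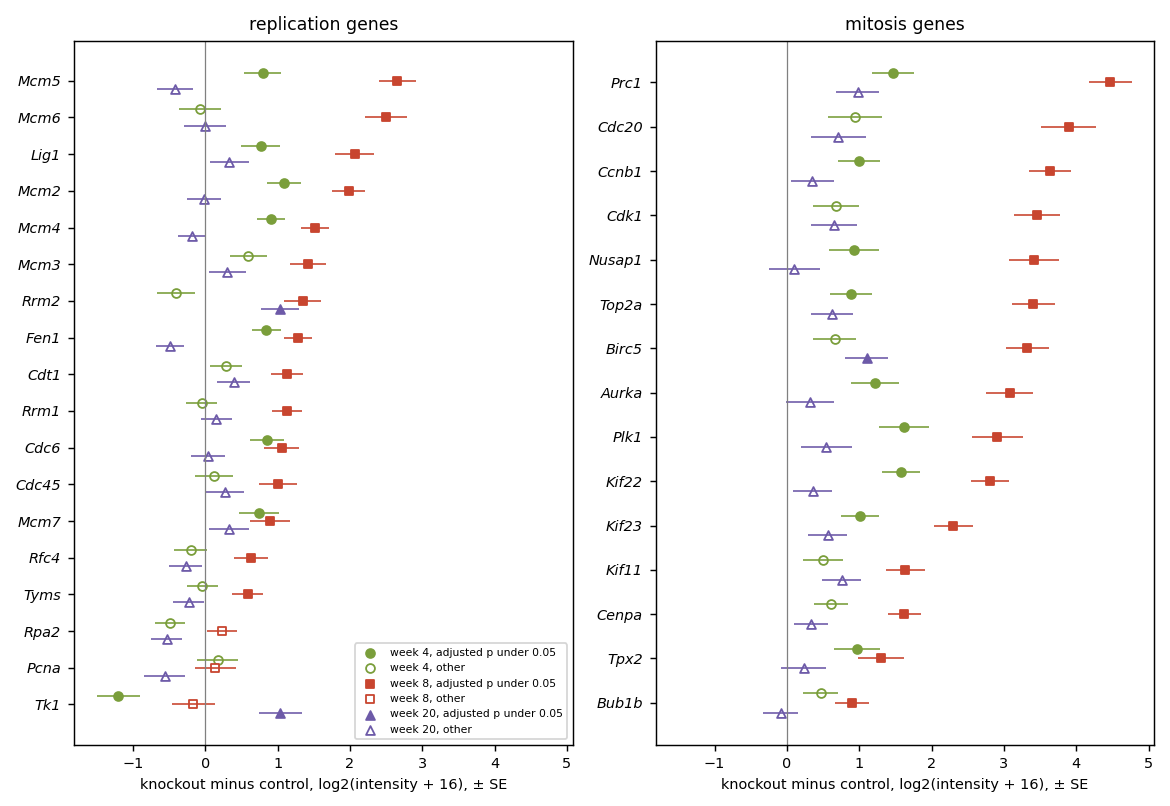
Knockout minus control in log2(intensity + 16) ± SE, on the x axis, for each measured replication gene (left) and mitosis gene (right) at week 4 (green circles), week 8 (red squares) and week 20 (violet triangles), with filled symbols for limma adjusted p under 0.05. The week 8 symbols lie to the right of both other weeks for the mitosis genes and for most replication genes.

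Among the licensing genes all 8 measured, the helicase subunits Mcm2 to Mcm7 and the loaders Cdc6 and Cdt1, were higher at week 8. Mcm5, a helicase subunit, read 382, 294, 600.4 and 216 on the control arrays of week 4, 89.3, 84.4, 77.7 and 107 at week 8 and 108, 87.7, 168 and 168 at week 20. Knockout arrays read 343, 728, 727 and 786 at week 4, 603, 564, 682 and 752 at week 8 and 101, 78.7, 102 and 87.7 at week 20. The week 8 groups were far apart, while those of weeks 4 and 20 overlapped. At week 8 it was higher by 2.66 ± 0.25 (adjusted p = 4.48e-09), at week 4 by 0.79 ± 0.25 (adjusted p = 0.0199), and the week 20 difference of -0.42 ± 0.25 did not pass (adjusted p = 0.348). Without control week 4 replicate 5 the week 4 call was lost, at 0.58 (adjusted p = 0.0984). The subunits Mcm6, Mcm2, Mcm4, Mcm3 and Mcm7 were higher at week 8 by 2.50 ± 0.29, 1.98 ± 0.23, 1.52 ± 0.19, 1.42 ± 0.25 and 0.90 ± 0.28. Mcm3 was at least 3.13-fold higher there, with no control array of that week above background. The other 2 kept probes of Mcm6 differed at week 8 by 1.91 and 2.17, in the same direction as the one used. Cdt1 and Cdc6, which load the helicase, were higher by 1.13 ± 0.22 (adjusted p = 0.000161) and 1.06 ± 0.24 (adjusted p = 0.000732), the latter at least 1.8-fold. Mcm2 was low on control week 8 replicate 3, at 8.98, where the other 3 control arrays of that week read 33.1 to 39.5, and knockout arrays read 130.3 to 174.

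Helicase activation was represented by Cdc45, since Gins1 and Gins2 had no probe and were not analysed here. Control arrays read Cdc45 at 55.3, 34.4, 56.7 and 32.3 at week 4, 22, 9.26, 14.7 and 24.3 at week 8 and 11.4, 15.8, 28.3 and 13 at week 20. The knockout readings were 34.4, 65.7, 79 and 29.2 at week 4, 57.8, 32.8, 46 and 70.5 at week 8 and 20.1, 40.8, 21.7 and 14.8 at week 20. Only the week 8 groups did not overlap, and the probe was dim throughout, with 2 of the 4 control arrays of week 8 above background. It was higher by 1.01 ± 0.26 at week 8 (adjusted p = 0.00228) and did not pass at the other ages, where the differences were 0.12 ± 0.26 and 0.27 ± 0.26 (adjusted p = 0.773 and 0.584).

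Of the priming and synthesis genes 3 of 5 measured were higher at week 8. Lig1, the ligase that seals lagging-strand fragments, read 129, 88.6, 231 and 73.7 in control livers at week 4, 50.2, 35.4, 30.3 and 57.4 at week 8 and 46.4, 38.3, 19.4 and 57.4 at week 20. In knockout livers it read 135, 272, 204 and 280.4 at week 4, 245, 247, 206 and 216 at week 8 and 71, 53.6, 42 and 47 at week 20. The knockout readings of week 8 all exceeded the control readings of that week at least 3 times over. The gene was higher by 2.06 ± 0.27 at week 8 (adjusted p = 6.89e-07) and, with a difference of 0.77 ± 0.27, also at week 4 (adjusted p = 0.034), and did not pass at week 20 (0.33 ± 0.27, adjusted p = 0.509). The week 4 call of Lig1 was made in 9 of 19 alternative settings and was lost without control week 4 replicate 5, at 0.57 (adjusted p = 0.137). The other 2 kept probes of Lig1, above background on 5 and 8 arrays, differed by 0.73 ± 0.25 and 0.73 ± 0.28 at week 8 and by 0.49 ± 0.25 and 0.60 ± 0.28 at week 4. Fen1, the flap nuclease, was higher by 1.28 ± 0.20 at week 8 (adjusted p = 8.71e-06) and by 0.84 ± 0.20 at week 4 (adjusted p = 0.00228), with no overlap of arrays at either age. Rfc4, a subunit of the clamp loader, was higher by 0.63 ± 0.23 at week 8 (adjusted p = 0.0251) in overlapping groups, was called in 13 of 19 settings, and had a second probe with a difference of -0.25 ± 0.21, of the opposite sign. Without knockout week 8 replicate 4 the difference of Rfc4 was 0.54 (adjusted p = 0.0774). Pcna, the sliding clamp, did not pass at week 8, with a dim probe and a difference of 0.14 ± 0.28 (95% interval -0.44 to 0.72). Rpa2, a subunit of the single-strand binding protein, did not pass either, at 0.23 ± 0.21 (95% interval -0.21 to 0.66).

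Of the 4 enzymes of deoxynucleotide supply 3 were higher at week 8. Rrm1, the large subunit of ribonucleotide reductase, read 228, 153, 266 and 144 in control livers at week 4, 75.6, 110.2, 103 and 114 at week 8 and 61.2, 126, 109 and 63.5 at week 20. Its knockout readings were 143, 245, 155 and 213 at week 4, 212, 269.8, 243 and 229 at week 8 and 85.6, 101, 93.7 and 113 at week 20. The groups overlapped at weeks 4 and 20, and at week 8 every knockout array was above every control array. Rrm1 was higher by 1.13 ± 0.21 at week 8 (adjusted p = 8.39e-05), with -0.05 ± 0.21 at week 4 and 0.16 ± 0.21 at week 20. Rrm2, its small subunit, was higher by 1.35 ± 0.26 at week 8 (adjusted p = 0.000127) and Tyms, thymidylate synthase, by 0.58 ± 0.21 (adjusted p = 0.0259), the latter with overlapping arrays and called in 14 of 19 settings. Tyms was at 0.37 (adjusted p = 0.143) without knockout week 8 replicate 4, and its second probe differed by 0.31 ± 0.28. Tk1, the cytosolic thymidine kinase, was not among the genes higher at week 8. Controls read Tk1 at 541, 423, 545 and 521 at week 4, 313, 424, 357 and 241 at week 8 and 479.6, 617, 211 and 139 at week 20. Knockouts read it at 151, 222, 268 and 217 at week 4, 235, 236, 299.9 and 423 at week 8 and 535, 631, 823 and 641 at week 20. At week 4 every knockout array lay below every control array, at week 8 the groups overlapped, and at week 20 the controls were spread from 139 to 617 and overlapped the knockouts. Tk1 was lower at week 4, with a difference of -1.20 ± 0.30 (adjusted p = 0.00348), did not pass at week 8 (-0.16 ± 0.30, 95% interval -0.78 to 0.45), and was higher at week 20 by 1.04 ± 0.30 (adjusted p = 0.0407). The low control readings of week 20 came from replicates 3 and 4, and without both the week 20 difference was 0.25 (limma adjusted p = 0.644). A second Tk1 probe, above background on all 24 arrays, differed by -1.16 ± 0.27 at week 4, -0.49 ± 0.27 at week 8 and 0.40 ± 0.27 at week 20.

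**Figure D4:**
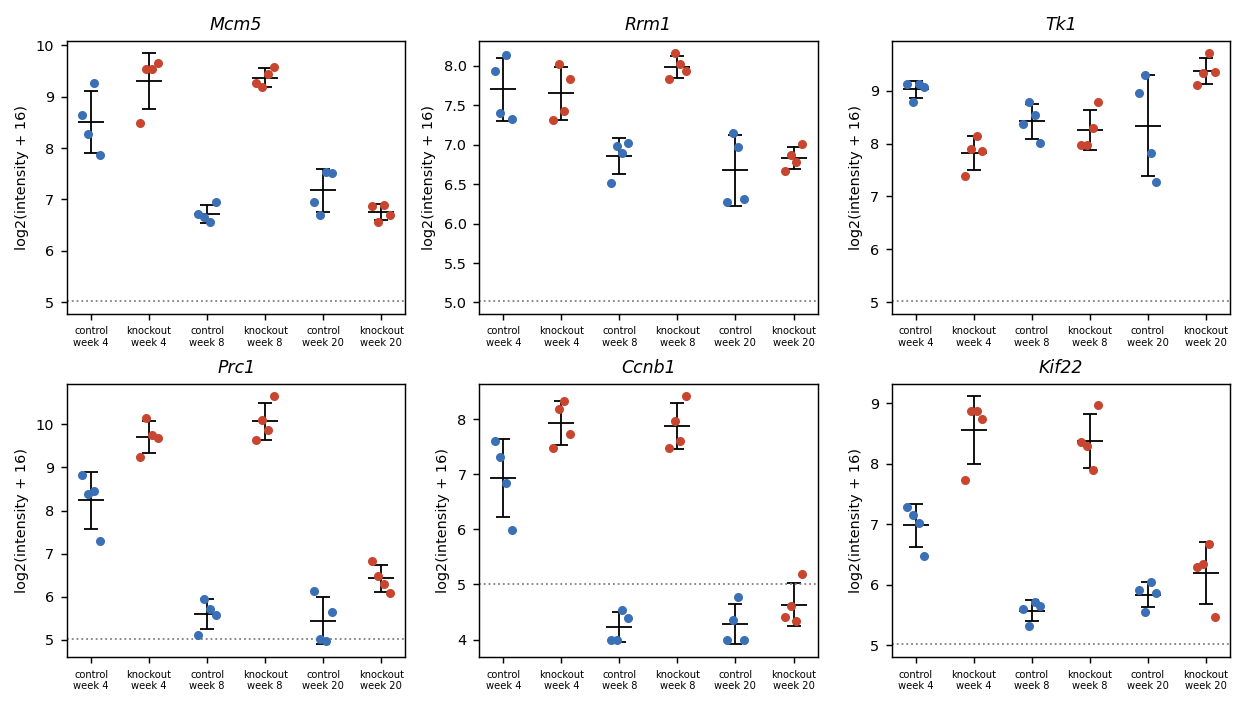
Log2(intensity + 16) on every array, on the y axis, for Mcm5, Rrm1, Tk1, Prc1, Ccnb1 and Kif22 in the 6 groups on the x axis (control blue, knockout red, bars mean ± SD, dotted line background threshold). Ccnb1 lies under the threshold in all control arrays after week 4, and Tk1 lies lower on all knockout arrays than on all control arrays at week 4.

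Of the genes of chromosome structure and the centromere, the 3 measured were higher at week 8. Top2a, the topoisomerase that untangles sister chromatids, read 47.3, 64.9, 89 and 20.6 in control livers at week 4, -8.19, -4.81, 2.07 and -1.29 at week 8 and -4.07, 3.32, 0.43 and 15.7 at week 20. The knockout arrays read 63.2, 140.0, 144 and 99.3 at week 4, 113, 169, 146 and 225 at week 8 and 12.6, 8.36, 31 and 11.6 at week 20. Top2a was thus at background in controls from week 8 on, and in 3 of 4 knockout arrays of week 20. At week 8 it was at least 9.69-fold higher, with a difference of 3.41 ± 0.30 (adjusted p = 1.04e-09), and at week 4 it was higher by 0.88 ± 0.30 (adjusted p = 0.027) in groups that overlapped. The week 4 call of Top2a was lost without control week 4 replicate 5, at 0.60 (adjusted p = 0.133). Birc5, survivin of the chromosomal passenger complex, was higher at week 8 by 3.32 ± 0.30 (adjusted p = 1.82e-09) and at week 20 by 1.10 ± 0.30 (adjusted p = 0.0312), with a week 4 difference of 0.66 ± 0.30 that did not pass (adjusted p = 0.103). The week 20 controls read Birc5 at 19, 17.6, 37.1 and 31.7 and the knockouts at 89.6, 66.7, 57.7 and 82.4, without overlap. The other 2 kept Birc5 probes differed at week 20 by 0.47 ± 0.31 and 0.30 ± 0.29, and with the mean of all 3 probes the call was lost, at 0.63 (limma adjusted p = 0.171). Cenpa, the histone variant that marks centromeres, read 522 to 698 in controls and 1360.0 to 3001 in knockouts at week 8, and was higher by 1.62 ± 0.23 (adjusted p = 2.7e-06).

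Prc1 and Kif23, which build the central spindle for cytokinesis, were higher at both weeks 4 and 8. Prc1 readings in controls were 436, 319, 334 and 141 at week 4, 18.8, 45.7, 37 and 31.8 at week 8 and 54.4, 16.7, 15.4 and 34.3 at week 20. In knockouts they were 585, 1123, 851 and 798 at week 4, 784, 1079, 921 and 1585 at week 8 and 98.1, 73.9, 62.6 and 51.7 at week 20. The groups did not overlap at weeks 4 and 8, and at week 20 the lowest knockout reading, 51.7, lay just under the highest control reading, 54.4. Prc1 was higher by 4.47 ± 0.30 at week 8 (adjusted p = 8.25e-12), after 1.47 ± 0.30 at week 4 (adjusted p = 0.000536), and its week 20 difference was 0.98 ± 0.30 (adjusted p = 0.0503). Kif23 was at least 4.78-fold higher at week 8 (adjusted p = 1.27e-07) and higher by 1.01 ± 0.27 at week 4 (adjusted p = 0.00588).

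Cyclin B1 and its kinase partner CDK1 were both higher at week 8. Ccnb1 read 177, 143, 98 and 47.5 in controls at week 4, -10.8, -1.73, 7.21 and 4.98 at week 8 and -5.32, 4.46, 11.5 and -2.4 at week 20. Knockout livers gave 162, 275, 306 and 196 at week 4, 163, 235, 179 and 324 at week 8 and 5.27, 8.34, 4.1 and 20.6 at week 20. No control array was above background after week 4, and 1 of 4 knockout arrays was at week 20. Ccnb1 was at least 13.3-fold higher at week 8 (3.64 ± 0.29, adjusted p = 3.13e-10) and higher by 1.0 ± 0.29 at week 4 (adjusted p = 0.0124) in overlapping groups. Leaving out control week 4 replicate 5 put its week 4 difference at 0.68 (adjusted p = 0.0727). Cdk1, read at 10.2 to 30.3 in controls and 218 to 581 in knockouts of week 8, was higher there by 3.46 ± 0.32 (adjusted p = 2.76e-09) and did not pass at week 4, with 0.67 ± 0.32 (adjusted p = 0.12). The other cyclins of this role, Ccnb2 and Ccna2, stayed under background on all 24 arrays.

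The mitotic kinases Aurka and Plk1 were higher at weeks 4 and 8. Aurka, which acts at the spindle poles, read 103, 88.3, 57.5 and 26.8 in controls at week 4, -0.866, 14, 2.3 and 22.4 at week 8 and 17.8, 19.7, 26.4 and 7.94 at week 20. Knockout readings were 84.6, 234, 169 and 226 at week 4, 141, 186, 184 and 255 at week 8 and 19.6, 21.4, 19 and 47.3 at week 20. A knockout reading of week 4, replicate 1, lay among the controls, and the week 8 groups did not overlap. The rise of Aurka over controls was 1.21 ± 0.33 at week 4 (adjusted p = 0.00679), and at week 8 it reached 3.08 ± 0.33 (adjusted p = 3.08e-08). Plk1, which acts from mitotic entry to cytokinesis, was higher by 1.62 ± 0.35 (adjusted p = 0.00104) and 2.91 ± 0.35 (adjusted p = 1.97e-07), without overlap at either age. Bub1b, the spindle checkpoint kinase-like protein BubR1, was higher by 0.90 ± 0.24 at week 8 (adjusted p = 0.00273) and did not pass at week 4, with 0.46 ± 0.24 (adjusted p = 0.151).

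The 4 genes of spindle motors and spindle assembly were all higher at week 8. Kif22, a chromosome-arm kinesin, read 140.4, 127, 115 and 73.2 in controls at week 4, 32.7, 24, 36.8 and 34.1 at week 8 and 44.2, 30.7, 50.04 and 42.2 at week 20. Its knockout values were 196, 456, 456 and 413 at week 4, 314, 300.3, 222 and 488 at week 8 and 62.6, 64.9, 85.7 and 28.5 at week 20. Knockout and control arrays did not overlap at weeks 4 and 8 and overlapped at week 20. Kif22 was higher by 1.57 ± 0.26 at week 4 (adjusted p = 7.46e-05) and by 2.81 ± 0.26 at week 8 (adjusted p = 3.8e-09), while the week 20 difference of 0.35 ± 0.26 did not pass (adjusted p = 0.469). At week 8 Nusap1, a spindle microtubule bundler, was at least 15.2-fold higher, Kif11, the motor that pushes spindle poles apart, at least 2.85-fold, and Tpx2, an activator of Aurora A, at least 1.84-fold. Cdc20, which turns on the anaphase-promoting complex, read 658, 489, 312 and 184 in controls at week 4, 11.7, 45.7, 33.3 and 32.5 at week 8 and 37.3, 18.9, 21.6 and 26.6 at week 20. Knockout readings of Cdc20 were 422, 979.6, 937 and 717 at week 4, 398, 784, 376 and 1512 at week 8 and 59.2, 68, 54.2 and 32.5 at week 20. The week 8 readings were wide apart, and replicate 4 was by far the highest of the knockouts. Cdc20 was higher by 3.89 ± 0.38 at week 8 (adjusted p = 6e-09) and did not pass at week 4, at 0.94 ± 0.38 (adjusted p = 0.0639), nor at week 20, at 0.71 ± 0.38 (adjusted p = 0.279). The other 3 kept probes of Cdc20, above background on 15, 14 and 16 arrays, differed at week 8 by 3.49 ± 0.48, 1.36 ± 0.37 and 2.89 ± 0.39.

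At week 4, when control livers still expressed both classes, the median difference of both classes was smaller than at week 8 and fewer genes passed. Of 15 mitosis genes 9 were higher and 0 lower, and of 18 replication genes 7 were higher and 1 lower, against 14.8% of all tested genes higher and 12.4% lower. The median difference was 0.94 for mitosis genes, 0.23 for replication genes and -0.01 for all tested genes. At an unadjusted p under 0.05 limma gave 13 higher and 0 lower mitosis genes and 8 higher and 2 lower replication genes. All 15 mitosis genes had a positive difference, from 0.46 for Bub1b to 1.62 for Plk1. In the replication class 11 of 18 differences were positive, and the 7 higher genes were the helicase subunits Mcm2, Mcm4, Mcm5 and Mcm7, the loader Cdc6 and the lagging-strand enzymes Fen1 and Lig1. The licensing genes had a median of 0.77 and the deoxynucleotide enzymes one of -0.23. Mcm6, which was higher by 2.50 ± 0.29 at week 8, differed by -0.07 ± 0.29 at week 4. The other 2 kept probes of Mcm6 differed at week 4 by 0.04 ± 0.26 and 0.22 ± 0.24, of the opposite sign. Without control week 4 replicate 5, the array of lowest mean level, 5 mitosis genes and 5 replication genes passed. Besides Mcm5, Lig1, Top2a and Ccnb1, given above, the calls lost there were those of Mcm7 at 0.74 (adjusted p = 0.0777), Tpx2 at 0.81 (adjusted p = 0.0799) and Nusap1 at 0.63 (adjusted p = 0.196). With an offset of 1 in place of 16, 4 replication genes were higher and 1 lower, and 3 mitosis genes were higher. Leaving out control week 4 replicate 3, knockout week 4 replicate 3 or knockout week 4 replicate 5 also left 5 replication genes, and without knockout week 4 replicate 1 the counts were 13 of mitosis and 9 of replication.

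At week 20 few genes of either class passed. These were Rrm2 and Tk1 of 18 replication genes and Birc5 of 15 mitosis genes, all higher, with 0 lower in either class, where 3.44% of all tested genes were higher and 2.23% lower. At an unadjusted p under 0.05, limma gave 2 lower replication genes and 0 lower mitosis genes. Median differences were 0.02 for replication genes, 0.55 for mitosis genes and 0.00 for all tested genes. Of the mitosis genes 14 of 15 had a positive difference, up to 1.10 for Birc5. Rrm2 read 23.7, 49.6, 5.67 and 16.6 in controls and 80.7, 55.7, 64.3 and 41.7 in knockouts, in overlapping groups, and was higher by 1.03 ± 0.26 (adjusted p = 0.0205). Without control week 20 replicates 3 and 4, limma called 0 replication genes, with Rrm2 at 0.56 (adjusted p = 0.296), while Birc5 was at 1.38 (adjusted p = 0.0373). The Birc5 call was made in 9 of 19 alternative settings, that of Rrm2 in 12 of 18 and that of Tk1 in 7 of 19. Leaving out control week 20 replicate 3 or 4, or knockout week 20 replicate 1 or 3, left 0 replication genes, and leaving out knockout week 20 replicate 2 or 4 left 1. The mitosis count was 0 without control week 20 replicate 2 or knockout week 20 replicate 1 or 2. Birc5 also lost its call without control week 20 replicate 1 or knockout week 20 replicate 4 (limma adjusted p = 0.0581 and 0.0607). The mitosis count stayed at 1 there through another gene.

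The change with age was followed within each genotype. In control livers genes of both classes fell between weeks 4 and 8. Of 15 mitosis genes 12 fell and 0 rose, and of 18 replication genes 10 fell and 0 rose, where 4.79% of all tested genes fell and 3.19% rose. At an unadjusted p under 0.05 limma again gave 0 that rose. Median changes were -1.75 and -0.77, against 0.00 for all tested genes. The largest falls were -3.10 ± 0.38 for Cdc20 (adjusted p = 2.95e-06) and -2.32 ± 0.29 for Mcm6 (adjusted p = 4.68e-06), while Pcna was at 0.07 ± 0.28 and Fen1 at -0.11 ± 0.20, neither past the threshold. Nusap1 fell at least 6.51-fold and Ccnb1 at least 6.38-fold. Without control week 4 replicate 4 the replication count was 6. From week 8 to 20 in controls 0 genes of either class changed by limma, where 0.0186% of all tested genes rose and 0.00932% fell, and at an unadjusted p under 0.05 it gave 1 replication gene, higher, and 0 mitosis genes.

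Knockout livers showed the fall one interval later. From week 4 to 8 limma called 0 genes of either class, also 0 at an unadjusted p under 0.05, where 4.98% of all tested genes rose and 4.02% fell. The median changes were 0.02 for mitosis and 0.07 for replication genes, and the changes ran from -0.46 for Plk1 to 0.56 for Cdk1. From week 8 to 20 all 15 mitosis genes fell, and of 18 replication genes 14 fell and 1, Tk1, rose, where 22.2% of all tested genes fell and 20.8% rose. Median changes were -2.29 and -0.92, against 0.03 for all tested genes. The largest falls were -3.64 ± 0.30 for Prc1 (adjusted p = 6.53e-10) and -2.62 ± 0.25 for Mcm5 (adjusted p = 1.01e-08), and Tk1 rose by 1.12 ± 0.30 (adjusted p = 0.00355). Rrm2 (-0.32 ± 0.26), Pcna (-0.65 ± 0.28) and Rpa2 (-0.48 ± 0.21) did not pass. Without knockout week 8 replicate 4 the falls of Mcm7, Cdt1, Tyms and Cdc45 were -0.50 (adjusted p = 0.169), -0.55 (adjusted p = 0.073), -0.50 (adjusted p = 0.0509) and -0.63 (adjusted p = 0.0726), no longer past the threshold. Cdc6 fell at least 1.8-fold, to readings under background on all 4 knockout arrays of week 20.

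**Figure D5:**
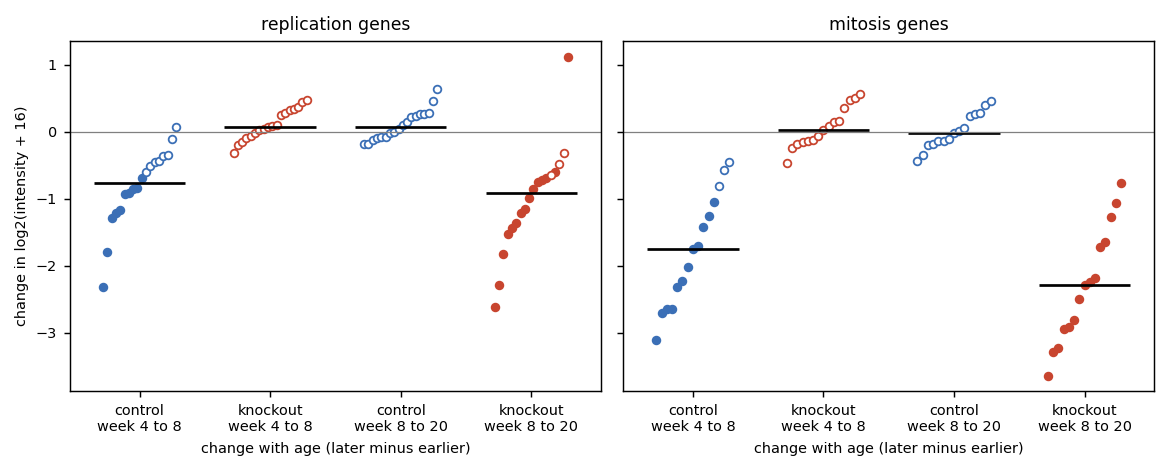
Change in log2(intensity + 16), later minus earlier week, on the y axis for each measured gene (1 point each, filled for limma adjusted p under 0.05, line at the class median), for the 4 steps of age and genotype on the x axis, with replication genes left and mitosis genes right. Filled points appear in controls from week 4 to 8 and in knockouts from week 8 to 20, and Tk1 is the single filled point above 0.

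The knockout-control difference itself changed with age by the interaction contrast of the same fit. Between weeks 4 and 8 it grew in 10 of 15 mitosis and 5 of 18 replication genes and shrank in 0, where 5.57% of all tested genes grew and 3.36% shrank. By limma at an unadjusted p under 0.05 these were 13 and 14 genes, again with 0 shrinking. The 5 replication genes were Mcm5, Mcm6, Rrm1, Rrm2 and Lig1. Median changes of the difference were 1.86 and 0.84, against -0.01 over all tested genes. Prc1 gained 3.0 ± 0.42 (adjusted p = 3.62e-05) and Mcm6 2.57 ± 0.41 (adjusted p = 0.000175). Without knockout week 4 replicate 1 this growth was 1.09 (adjusted p = 0.073) for Lig1, 0.96 (adjusted p = 0.0826) for Kif22 and 1.28 (adjusted p = 0.0505) for Kif23, and without knockout week 8 replicate 4 it was 1.04 (adjusted p = 0.079) for Kif22 and 1.11 (adjusted p = 0.0688) for Kif23. Between weeks 8 and 20 it shrank in 13 of 15 mitosis genes and 11 of 18 replication genes and grew in 1, Tk1, where 16.9% of all tested genes shrank and 14.2% grew. The change for Tk1 was 1.20 ± 0.42 (adjusted p = 0.0316), was called in 16 of 27 alternative settings, and was 0.41 (adjusted p = 0.351) without control week 20 replicates 3 and 4, when 8 replication genes shrank and 0 grew. The calls of Mcm3, Tyms and Rfc4 were lost there too, at -0.97 (adjusted p = 0.0867), -0.88 (adjusted p = 0.0638) and -0.92 (adjusted p = 0.0759). Without knockout week 8 replicate 4 the calls of Tyms, Rfc4 and Bub1b were lost, at -0.59 (adjusted p = 0.105), -0.81 (adjusted p = 0.0704) and -0.91 (adjusted p = 0.0502). The medians were -2.46 and -0.94, against 0.04. Tpx2 and Kif11 were the mitosis genes that did not pass here, at -1.07 ± 0.44 (adjusted p = 0.0673) and -0.88 ± 0.39 (adjusted p = 0.0828). Of the replication genes below the threshold, Rrm2 differed by -0.32 ± 0.37 (adjusted p = 0.557). Both contrasts share the week 8 arrays, so their values are not independent of each other.

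The probes of 9 genes were above background on fewer than 4 arrays, and these genes were not tested in the main fit. Prim1 and Pola1, which start each new DNA strand, reached at most 9.15 and 4.41, under the threshold on every array. The mitotic cyclins Ccnb2 and Ccna2 reached 6.63 and 7.12, and the checkpoint kinases Bub1 and Ttk 12.3 and 7.94. Ect2, the exchange factor that starts cytokinesis, reached 4.67 and Melk, a kinase, 16.2. Ube2c, the ubiquitin-conjugating enzyme of the anaphase-promoting complex, was above background on 3 arrays, all of knockout liver, with a highest reading of 24.1. A probe under background gives no level, so for these genes nothing can be said of a difference. Kif20a, Aurkb, Racgap1, Gins1 and Gins2 were not analysed here.

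Other genes of the same pathways, from 10 lists, were counted at week 8, read against the same 24.9% higher and 24% lower. Among further replication genes, origin recognition and firing kinases had 2 higher and 2 lower of 10 measured, with a median difference of -0.04, and polymerases, clamp loader and RPA had 7 higher and 2 lower of 16, with a median of 0.23. Replication checkpoint and repair had 6 higher and 0 lower of 11 (median 1.01) and nucleotide enzymes and replication chromatin 5 higher and 2 lower of 12 (median 0.05). The probe of Mcm10, an origin firing factor, was lower at week 8, with a difference of -2.69 ± 0.27 (adjusted p = 8.96e-09). It read 5732 to 6956 in controls and 633 to 1438 in knockouts, and rose by 2.55 ± 0.27 from week 8 to 20 in knockouts. Week 4 controls read 1094 to 2579, so the probe rose in controls where the licensing genes did not. Whether it reads only Mcm10 was not tested. Orc3, of the origin recognition complex, and Pole4, a small polymerase epsilon subunit, were lower, with differences of -0.79 ± 0.14 and -1.41 ± 0.18. Rpa1, the large subunit of the single-strand binding protein, was higher by 1.05 ± 0.14 (adjusted p = 7.06e-07), with 1259 to 1511 in controls and 2226 to 3641 in knockouts, while Rpa2 of the same complex did not pass. Uhrf1, which brings DNMT1 to replicated DNA, was higher by 3.49 ± 0.38 (adjusted p = 3.99e-08) and Chaf1b, of the chromatin assembly factor, by 1.65 ± 0.23. Clspn, the checkpoint adaptor claspin, and Rad54l, a recombination ATPase, were higher by 2.01 ± 0.23 and 2.06 ± 0.19, with no control array of week 8 above background for either.

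Further mitotic lists moved mostly upward at week 8. Other kinesins, spindle and centrosome genes had 9 higher and 0 lower of 10, with a median of 1.41, kinetochore and centromere genes 8 higher and 0 lower of 14 (median 0.82), condensin, cohesin and separase 6 higher and 1 lower of 12 (median 0.72) and mitotic entry and exit control 7 higher and 2 lower of 12 (median 0.63). Anln, the contractile-ring protein anillin, was higher by 3.42 ± 0.27 (adjusted p = 2.67e-10), Kif2c, a microtubule-depolymerising kinesin, by 3.11 ± 0.31 and Pbk, a mitotic kinase, by 4.16 ± 0.36 (adjusted p = 9.79e-10). Cdca3 was higher by 2.80 ± 0.31, Ncaph, a condensin subunit, by 2.61 ± 0.29, Esco2, a cohesin acetyltransferase, by 2.33 ± 0.36, Incenp, of the chromosomal passenger complex, by 2.23 ± 0.26 and Cenpn, a centromere protein, by 1.47 ± 0.24. No control array of week 8 was above background for Kif2c, Esco2 and Incenp, so their differences do not measure a fold. All 8 of these genes fell in knockouts from week 8 to 20. At week 20 the 4 mitotic lists held 1 gene past the threshold, among the 10 other kinesins, spindle and centrosome genes. At that age 3.44% of all tested genes were higher and 2.23% lower, so this count shows nothing particular to these lists.

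Among regulators, the E2F, RB and MuvB list had 6 higher and 2 lower of 13 at week 8, with a median of 0.25, and the list of G1 cyclins, CDKs and inhibitors 8 higher and 1 lower of 12, with a median of 0.90. E2f1 and E2f2, activating E2F factors, were higher by 0.96 ± 0.20 (adjusted p = 0.000359) and 1.54 ± 0.32 (adjusted p = 0.000307). Foxm1 and Mybl2, the mitotic transcription factors that work with MuvB, were higher by 1.03 ± 0.28 (adjusted p = 0.00383) and 1.17 ± 0.25 (adjusted p = 0.000423), and Rbl1, the pocket protein p107, by 1.78 ± 0.32. Their probes were dim, with Foxm1 at 10.9 to 42.6 in controls and 50.7 to 109.5 in knockouts. Ccnd1, cyclin D1 of the G1 phase, read 662 to 764 in controls and 8260.0 to 14712 in knockouts at week 8 and was higher by 3.89 ± 0.23 (adjusted p = 1.2e-12). Ccne1, cyclin E1, was higher by 0.93 ± 0.36 (adjusted p = 0.033). Cdkn1a and Cdkn2b, inhibitors of the cell cycle, were higher as well, by 3.76 ± 0.66 (adjusted p = 4.88e-05) and 2.93 ± 0.25 (adjusted p = 9.33e-10). No control array of week 8 was above background for Mybl2 and Cdkn2b, so these 2 differences do not measure a fold. At week 20 the differences of Ccnd1, Cdkn1a, E2f1 and Foxm1 were 0.26 ± 0.23, 0.10 ± 0.66, 0.14 ± 0.20 and 0.28 ± 0.28, with limma adjusted p between 0.556 and 0.955.

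Markers of other liver cell types moved over the same ages, counted at weeks 4, 8 and 20, when 14.8%, 24.9% and 3.44% of all tested genes were higher and 12.4%, 24% and 2.23% lower. Of 11 macrophage markers 10, 11 and 2 were higher, of 12 stellate cell and fibroblast markers 7, 10 and 1, of 8 T and NK cell markers 2, 6 and 1, of 7 neutrophil markers 0, 7 and 0 and of 8 biliary and progenitor markers 3, 5 and 1. The 2 measured B and plasma cell markers were both higher at week 8 only, and 10 endothelial and 6 erythroid markers were split, with 3 higher and 3 lower and 2 higher and 2 lower at week 8, shares near those of all tested genes. A stellate cell and fibroblast marker was lower at week 4 and one at week 20, and a biliary marker at week 8. Of 11 hepatocyte markers 4, 7 and 2 were lower and 0 higher at the 3 weeks. The summed intensity of the macrophage markers was 9651 to 12075, 7715 to 9538 and 5867 to 12889 in controls and 16697 to 24716, 21234 to 41260.4 and 6386 to 14639.9 in knockouts at weeks 4, 8 and 20. Biliary and progenitor markers summed to 542 to 876, 452 to 669 and 504 to 816 in controls and 1938 to 2945, 3057 to 4398 and 575 to 1331 in knockouts. For stellate cell and fibroblast markers the sums at week 8 were 6975 to 7870.1 in controls and 19357 to 23424 in knockouts, for T and NK cell markers 302 to 403 and 674 to 949, and for neutrophil markers 31.8 to 109 and 875 to 2248. Hepatocyte markers summed to 139931 to 153748 in controls and 129453 to 137337 in knockouts at week 8, with Alb and Ttr above background on all 24 arrays. Such a sum weighs the brightest markers most. The mean log2 level of the hepatocyte markers at that age was 12.22 to 12.36 in controls and 11.34 to 11.59 in knockouts. Endothelial markers summed to 7063 to 7944 and 5807 to 7755, erythroid markers to 11502 to 16407 and 11163 to 33249, and B and plasma cell markers to 34 to 53.3 and 141 to 255, at the same age. Of the defining markers, Krt19 of bile ducts was above background on 2 arrays at most, while Cd68, Csf1r, Pecam1, Cdh5, Hba-a1 and Hbb-b1 were above it on all 24, S100a8 on 23, S100a9 on 20, Cd3d and Krt7 on 17, Col1a2 on 16, Col1a1 on 13 and Cd3e on 8. The part of these cell types in the levels of the replication and mitosis genes was not tested.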

How the data were processed

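Liver RNA from 24 arrays was used, in 6 groups of 4 set by the genotype and week of the labels. Arrays were read and normalized in GenomeStudio 2011, per the submitters' processing notes. The deposited table holds the authors' normalized intensity for 25697 probes, with 27.8% of values below 0 and column medians between 13.3 and 13.6. A non-normalized table has 48 columns of per-array values that match no sample and were not used, so only the pairing of probe and symbol was read from it. The planned normalization of the scanner signals was therefore replaced by the deposited intensity.

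Values under 0 were set to 0 and transformed to log2(deposited intensity + 16). The noise SD was taken from the negative values by their root mean square and was 7.03, and the background threshold its upper 1% point, 16.3. Probes above it on at least 4 arrays were kept (14536), and each gene was read by its probe of highest mean. Symbols were updated through the RefSeq gene table of GRCm38.p6 (3872 probes), which also placed Cdc45 and Cdk1. Sequences are credited to RefSeq, GRCm38.p6.

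Tests came from one limma fit of 6 group means (version 3.58.1 under R 4.3.3, trended eBayes), with Benjamini-Hochberg adjustment over the 10733 genes, two-sided, and the procedure was tested on simulated data. The labels do not say whether equal replicate numbers mark paired arrays, and the main fit left them unpaired. Of 11 same-numbered pairs 0 had a correlation of deviations over 0.1 (range -0.15 to 0.04), which cannot exclude a pairing. A fit with a replicate block was among the alternatives. The labels give no chip or batch. Alternatives were other offsets, filters, probe summaries, fits and array subsets.

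Values on every array are given for the gene of lowest week 8 p in each role and for genes called against their class. Of the other pathway lists, the 2 genes of lowest week 8 p were named, with E2f1, Foxm1, Mybl2, Ccnd1, Ccne1, Cdkn1a and Uhrf1, and Mki67 was not analysed here. Some further genes were given full readings after their values were seen (Birc5 and Rrm2 at week 20). The genes and lists were chosen with earlier results of these data known, and the course over age is not independent support for them.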

Additional observations from a re-analysis of the deposited data

Results flagged for a closer look

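In 14 of 198 gene and group combinations the highest or lowest of the 4 arrays lay apart from the other 3 by Dixon's ratio, where chance gives about 1 in 20, or 9.9, and the class means gave 0 in 12 groups. Values are log2 signals. Mcm2 read 4.64 on control week 8 replicate 3, against 5.62 to 5.79 on the other 3 arrays. Mcm4 read 8.05 on control week 20 replicate 1, against 8.32 to 8.34 on the other 3 arrays. Mcm5 read 8.49 on knockout week 4 replicate 1, against 9.54 to 9.65 on the other 3 arrays. Fen1 read 7.31 on control week 8 replicate 5, against 7.49 to 7.52 on the other 3 arrays. Top2a read 4.18 on control week 8 replicate 4, against 4.0 on the other 3 arrays. Birc5 read 7.02 on control week 4 replicate 5, against 8.31 to 8.51 on the other 3 arrays. Plk1 read 8.08 on knockout week 4 replicate 1, against 8.96 to 9.02 on the other 3 arrays. Plk1 read 6.16 on knockout week 20 replicate 1, against 5.23 to 5.34 on the other 3 arrays. Kif22 read 7.73 on knockout week 4 replicate 1, against 8.75 to 8.88 on the other 3 arrays. Aurka read 5.98 on knockout week 20 replicate 4, against 5.13 to 5.23 on the other 3 arrays. Tpx2 read 4.96 on control week 8 replicate 2, against 4.0 on the other 3 arrays. Tpx2 read 4.14 on control week 20 replicate 1, against 4.0 on the other 3 arrays. Tpx2 read 5.07 on knockout week 20 replicate 2, against 4.0 on the other 3 arrays. Nusap1 read 4.0 on control week 8 replicate 4, against 4.80 to 4.88 on the other 3 arrays. Where the other arrays read 4.0, they were at the floor of the scale, so any reading above it was flagged whatever its size. The count of 14 is therefore not comparable with the 9.9 given for chance. The readings of Mcm5, Plk1 and Kif22 that lay apart at week 4 were all on knockout week 4 replicate 1.

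The difference between knockout and control changed with age by the interaction contrast of limma. Between weeks 4 and 8 it changed in 5 replication and 10 mitosis genes, among the genes given on every array by 1.86 for Mcm5, 1.18 for Rrm1, 1.30 for Lig1, 2.52 for Top2a, 3.0 for Prc1, 2.64 for Ccnb1, 1.24 for Kif22, 2.95 for Cdc20 and 1.86 for Aurka. Between weeks 8 and 20 it changed in 12 replication and 13 mitosis genes, by -3.07 for Mcm5, -0.98 for Rrm1, 1.20 for Tk1, -1.73 for Lig1, -2.78 for Top2a, -3.49 for Prc1, -3.28 for Ccnb1, -2.46 for Kif22, -3.18 for Cdc20 and -2.76 for Aurka.

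Signal above the background threshold also appeared in knockout arrays on probes that the filter left out. The Ube2c probe read 24.1 on knockout week 4 replicate 3, where the highest control array read 8.46, and 3 knockout arrays were above background. Unused probes of genes measured elsewhere read, on 1 array each, 18.4 on knockout week 8 replicate 4, where the highest control array read 5.59 (Mcm6), 21 on knockout week 20 replicate 1, where the highest control array read 8.38 (Tyms), 17.2 on knockout week 8 replicate 2, where the highest control array read 13.4 (Rpa2), and 23.4 on knockout week 20 replicate 4, where the highest control array read 9.58 (Mcm4).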

How the results depend on the processing

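Depth of signal limits the dim probes most, since 8 genes had no control array above background at week 8. Of 190 counts recomputed with another setting, 166 stayed within 1.5 times the reported count, and no direction was turned. With an offset of 1, week 4 gave 5 replication and 3 mitosis genes and week 20 gave 4 mitosis genes, and with an offset of 50 week 20 gave 0 mitosis genes. Without a filter on dim probes, 20 replication and 22 mitosis genes entered the fit. Week 4 then gave 6 and 7 of them, week 8 gave 15 and 15, and week 20 gave 1 and 0. A filter of all 24 arrays left 11 replication and 3 mitosis genes to test, of which 5 and 2 passed at week 4 and 9 and 3 at week 8, 1 replication gene at week 20, and, of mitosis, 2 for the growth of the difference from week 4 to 8, 3 for its fall after week 8, 3 for the control fall and 3 for the knockout fall. The mean over all kept probes gave 1 replication and 0 mitosis genes at week 20, fitting only the arrays compared gave 0 replication genes there, array weights 0 mitosis genes and eBayes without trend 1 replication gene. With the replicate block, week 20 gave 1 replication and 0 mitosis genes and the growth of the difference from week 4 to 8 gave 3 replication genes. Without control week 20 replicates 3 and 4, week 20 gave 0 replication genes. Leaving out 1 array gave 5 to 9 replication and 5 to 13 mitosis genes at week 4, 13 to 15 and 15 at week 8, 0 to 2 and 0 to 1 at week 20, and 6 to 11 replication genes for the control fall. Apart from the counts whose tested genes were fewer, the cause was not tested. Of the genes given on every array, 37 values lost and 8 gained their call, and none reversed.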
